A study of Mus musculus with 2 samples.

Results

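The Mir26 family consists of 3 microRNA genes in the mouse, Mir26a-1, Mir26a-2 and Mir26b, which were chosen by gene name from the 1973 microRNA genes of the count tables. All 3 were found, and each had at least 10 counts in both libraries, the level used here to call a gene detected. The tissue was forebrain of B6NCrl mouse embryos at embryonic day 13.5, with males and females pooled, no treatment and no genetic change named in the labels. Small RNA shorter than 30 nucleotides was sequenced in 2 libraries of this 1 group, biological replicates 1 and 2. The libraries have different biosample identifiers and 1 donor identifier, so their spread may be partly technical. There was no second condition, and every comparison below is between genes or between the 2 libraries.

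MicroRNAs are cut from hairpins in longer transcripts, and the strand that is kept guides silencing complexes to messenger RNAs that pair with its seed, bases 2 to 8. The miR-26 genes lie in introns of the Ctdsp genes, which encode small phosphatases of the RNA polymerase II tail. These phosphatases act with the repressor REST, which holds neuronal genes silent outside neurons and in progenitors. miR-26 is known to repress Ctdsp2 during neurogenesis, so a host gene and its own intron product oppose each other.

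The mature sequences are shown because they bear on which reads can be assigned to 1 gene. They were taken from RefSeq (GRCm38.p6), in which all 3 genes were matched by symbol. Capitals mark the seed.
miR-26a-5p, from Mir26a-1 and from Mir26a-2: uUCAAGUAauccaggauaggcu
miR-26b-5p, from Mir26b: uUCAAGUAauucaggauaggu
miR-26a-1-3p: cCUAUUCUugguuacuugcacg
miR-26a-2-3p: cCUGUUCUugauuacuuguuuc
miR-26b-3p: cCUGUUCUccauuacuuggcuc

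Mir26a-1 and Mir26a-2 give the same 5p sequence of 22 nt. miR-26b-5p has 21 nt and differs from it by C11U and C21U, counted from the 5′ end of miR-26a-5p. The 5p seed UCAAGUA is the same in all 3 genes. No other gene among 1738 mature entries of the RefSeq table has it. The 3p arms are all different. From miR-26a-1-3p to miR-26a-2-3p there are 6 substitutions (A4G, G11A, C19U, A20U, C21U and G22C), and from miR-26a-2-3p to miR-26b-3p there are 4 (U9C, G10C, U19G and U20C). The 3p seed CUGUUCU is shared by Mir26a-2 and Mir26b, while Mir26a-1 has CUAUUCU.

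The hairpins show how far the identity of the Mir26a genes extends. Capitals mark the longest stretch that Mir26a-1 and Mir26a-2 share, and in Mir26b the mature 5p sequence.
Mir26a-1: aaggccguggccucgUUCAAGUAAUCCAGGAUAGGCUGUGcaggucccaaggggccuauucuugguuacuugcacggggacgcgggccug
Mir26a-2: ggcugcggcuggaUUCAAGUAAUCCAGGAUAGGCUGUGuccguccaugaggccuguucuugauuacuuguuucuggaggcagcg
Mir26b: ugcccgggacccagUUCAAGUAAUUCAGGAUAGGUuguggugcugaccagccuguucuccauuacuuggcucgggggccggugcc

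The stretch shared by Mir26a-1 and Mir26a-2 is 25 nt long and begins at the first base of miR-26a-5p. Of the 69 windows of 22 nt in the Mir26a-1 hairpin, 4 also occur in Mir26a-2, and they start at positions 16 to 19 of the hairpin. In Mir26a-2 they are 4 of 63, starting at positions 14 to 17. A 22 nt read that starts at the first base of miR-26a-5p is one of these, so it fits both genes equally well. The windows over the 3p arms, and every one of the 64 windows of Mir26b, occur in no other annotated microRNA transcript. Mir26b shares at most 11 nt in a row with Mir26a-1 and 10 nt with Mir26a-2. Over whole hairpins 72.5% of aligned columns are identical between Mir26a-1 and Mir26a-2, 68.5% between Mir26a-1 and Mir26b, and 66.3% between Mir26a-2 and Mir26b. The computed folding energies are -0.549, -0.530 and -0.512 kcal/mol per nt for Mir26a-1, Mir26a-2 and Mir26b. All 3 are below the lower quartile of 1005 RefSeq hairpins (-0.465), whose median is -0.406.

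The 3 genes also have corresponding positions in their hosts. Mir26a-1 (ENSMUSG00000065513.1, 90 nt) lies on chromosome 9 at 119031796 to 119031885 (GRCm38, also called mm10), in intron 5 of 7 of Ctdspl. Mir26a-2 (ENSMUSG00000065430.1, 84 nt) lies on chromosome 10 at 126995530 to 126995613, in intron 5 of 7 of Ctdsp2. Mir26b (ENSMUSG00000065468.1, 85 nt) lies on chromosome 1 at 74394310 to 74394394, in intron 4 of 6 of Ctdsp1. Each is on the strand of its host, and in each host 2 more introns follow, counted in the transcript with the longest coding sequence. The introns measure 3283 nt in Ctdspl, 1946 nt in Ctdsp2 and 564 nt in Ctdsp1. In Ctdsp2 the next exon begins 241 nt after the hairpin, and 2 shorter annotated transcripts start at the last base of the hairpin, an overlap of 1 nt with an exon. The hairpins in Ctdspl and Ctdsp1 overlap no annotated exon of their hosts.

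In reads counted on single genes, Mir26b was among the highest microRNA genes of the embryonic forebrain, while the Mir26a genes had few counts. Mir26b had 67816 counts in replicate 1 and 72114 in replicate 2. Relative to 1000000 counts on microRNA genes (CPM) this was 16469 and 18448 CPM, or 17459 ± 1400 CPM (mean ± SD, n = 2 libraries, as below). It ranked 14 in each library and 13 by the mean of both. Mir26a-2 had 127 and 165 counts, which is 30.8 and 42.2 CPM (36.5 ± 8.04 CPM), and ranked 260 and 244. Mir26a-1 had 32 and 27 counts, which is 7.77 and 6.91 CPM (7.34 ± 0.611 CPM), and ranked 322 and 321. The order Mir26b, Mir26a-2, Mir26a-1 was the same in both libraries, and no value of one gene overlapped with a value of another. Reads of small RNA are counted per mature molecule, so CPM was not divided by gene length.

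**Figure D1:**
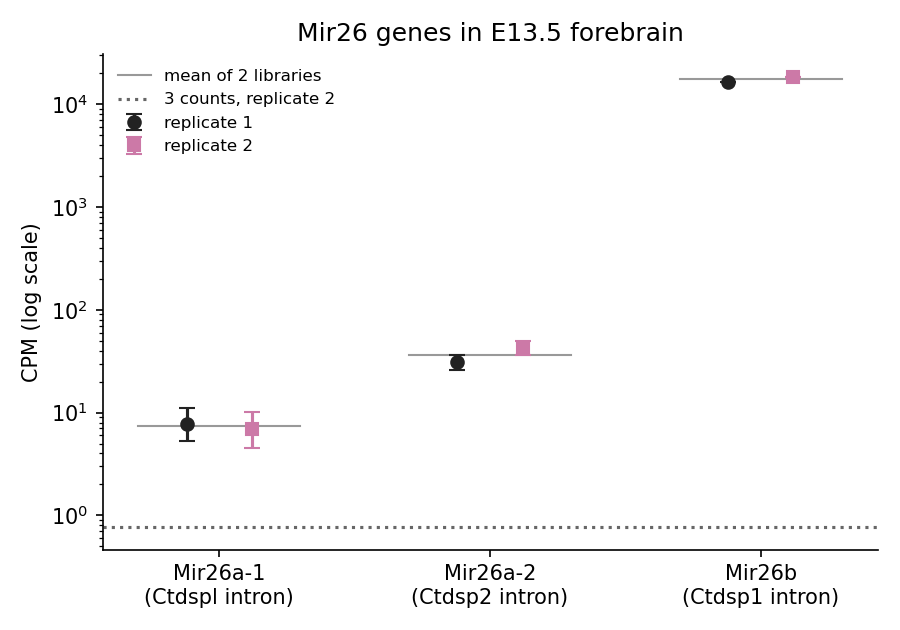
CPM of the 3 Mir26 genes on a log scale, by library (circles replicate 1, squares replicate 2), with exact 95% intervals for counting error, the mean of both libraries as a grey line and the level of 3 counts in replicate 2 dotted. Mir26b lies near 17459 CPM, Mir26a-2 near 36.5 CPM and Mir26a-1 near 7.34 CPM, all above the dotted line.

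The family as a whole held 1.65% of gene counts in replicate 1 and 1.85% in replicate 2 (1.75% ± 0.141), and Mir26b alone made up 99.8% and 99.7% of it. Mir26b exceeded the sum of Mir26a-1 and Mir26a-2 by 427-fold in replicate 1 and 376-fold in replicate 2 (401 ± 36.0). It exceeded Mir26a-2 by 486 ± 68.5-fold and Mir26a-1 by 2395 ± 390-fold. The gap was far larger than the spread between the libraries. Within the Mir26a pair, Mir26a-2 held 79.9% of the counts in replicate 1 (exact Clopper-Pearson 95% interval 72.8 to 85.8) and 85.9% in replicate 2 (80.2 to 90.5). The intervals overlap, and a difference in the balance of the pair between the libraries was not tested. Intervals cover counting error only, since reads copied by PCR are not independent molecules.

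These counts cannot be taken as the amount of miR-26a. The tables hold reads that map to several places in a row of their own, 40.6% of the 10631040 reads of replicate 1 and 43.9% of the 10452225 reads of replicate 2, and these were taken to add nothing to any gene. That row was 63.6 times the Mir26b count in either library. The tables do not say which sequences it contains, nor do they separate the arms of a hairpin. The part of shared reads in the low counts of Mir26a-1 and Mir26a-2 was therefore not tested. The ranks, shares and fold differences describe counted reads only. On the strand opposite to the genes, all 3 had 0 counts in both libraries, which allows up to 3 counts, or 0.729 CPM in replicate 1 and 0.767 CPM in replicate 2.

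Among the 377 detected genes, the Mir26 genes lay near the top, in the lower middle and near the bottom of the range. By mean CPM the genes just above Mir26b were Mir30e in an intron of Nfyc (20154 ± 145 CPM) and Mir20a of the Mir17 cluster (20816 ± 2872 CPM), and both were above Mir26b in each library without overlap. The gap to Mir20a was 1.17 times the larger SD. Just below it were endothelial Mir126a in Egfl7 (17435 ± 1970 CPM) and Mir487b (16517 ± 3870 CPM), whose values overlapped with those of Mir26b. The neighbours of Mir26a-2 were Mir326 (39.0 ± 1.61 CPM), Mir129-1, Mir208b and Mir3080, and those of Mir26a-1 were Mir193b, Mir3067, Mir147 and Mir6240. All 8 overlapped with the member beside them, so their order is within the spread. By the ratio of mean CPM over the 2 libraries, the gene most like Mir26b was Mir126a (0.999), the one most like Mir26a-2 was Mir208b (0.981), and the one most like Mir26a-1 was Mir147 (0.999).

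**Figure D2:**
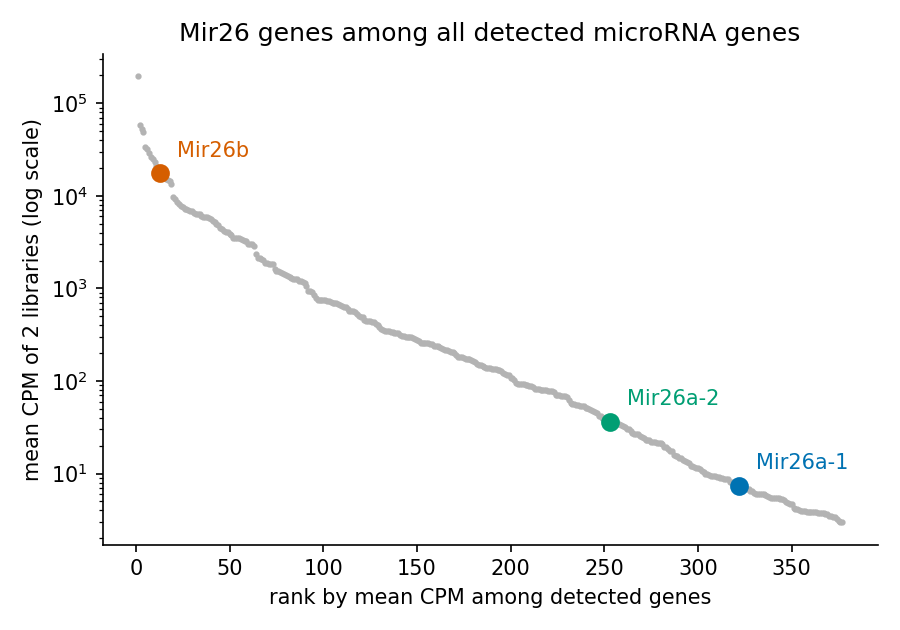
Mean CPM of the 2 libraries on a log scale against rank for the 377 detected genes (grey), with the Mir26 genes in colour. Mir26b stands at rank 13, Mir26a-2 at rank 253 and Mir26a-1 at rank 322.

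The position of each Mir26 gene was next set beside genes with the same kind of mature sequence. Of the 1973 genes, 916 were matched by symbol to a RefSeq mature sequence. They were grouped by whether exactly the same sequence also comes from another gene in RefSeq. A gene without a shared arm can still share a stretch of at least 20 nt with another annotated microRNA transcript. Mir107, Mir1a-1 and Mir133b are such genes and Mir26b is not, so low counts in that class may also leave out shared reads. In 829 genes no arm was shared, Mir26b among them. Of that class 296 genes were detected and 274 had 0 counts in both libraries. Its median over all genes was 0.729 CPM in replicate 1 and 0.512 CPM in replicate 2, and over the detected ones 152 and 134 CPM. Only 12 of its genes had a higher mean CPM than Mir26b. In 53 genes 1 arm was shared and 1 was not, as in both Mir26a genes. This class had 37 detected genes, a median of 38.4 and 42.2 CPM (275 and 180 CPM over the detected ones), and a maximum of 6377 CPM at Mir181a-1. Mir26a-2 lay at the middle of it, with 26 genes lower, and Mir26a-1 below the middle, with 20 lower. In 34 genes every arm was shared, of which 25 had 0 counts in both libraries and 8 were detected, the highest being Mir9-3 at 738 CPM. In counted reads, no gene with a shared arm reached the level of Mir26b.

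**Figure D3:**
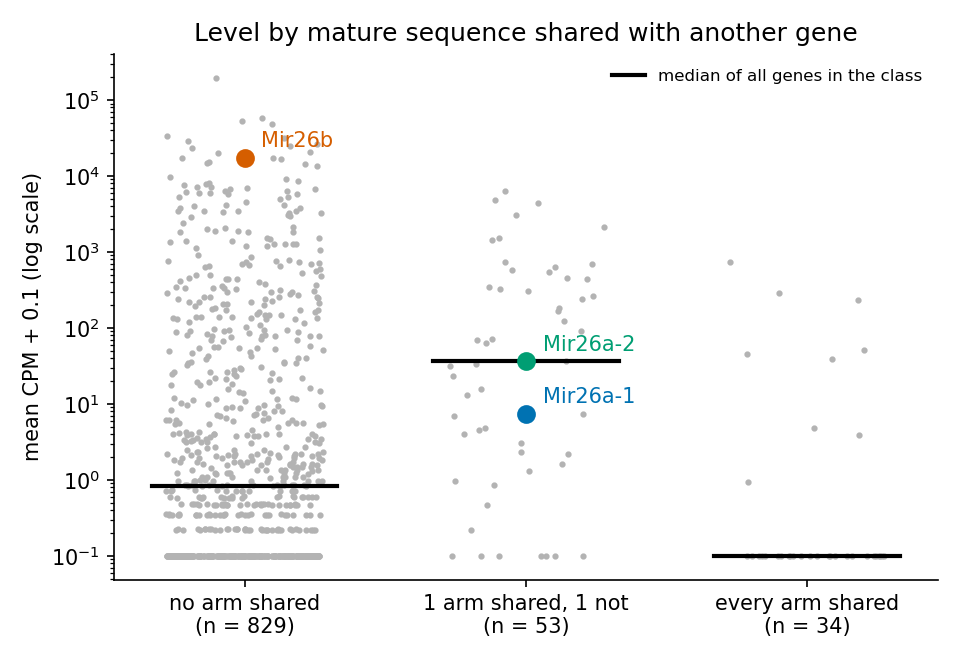
Mean CPM of the 2 libraries plus 0.1 (log scale) for each gene with a RefSeq mature sequence, by whether its arms are shared with another gene, with the class median over all genes as a black bar. Mir26b is near the top of the class without a shared arm, and Mir26a-2 and Mir26a-1 are at and below the median of the class with 1 shared arm.

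Some other families have the same arrangement, in which 2 genes give 1 identical mature sequence and sister genes give a close relative. A close parallel is the family of Mir103-1, Mir103-2 and Mir107, whose genes also lie in introns of 1 gene family, the pantothenate kinases Pank3, Pank2 and Pank1. Its mature sequences are shown for comparison with the miR-26 pair, with the seed in capitals. They differ by G22C alone.
miR-103-3p, from Mir103-1 and from Mir103-2: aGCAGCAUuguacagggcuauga
miR-107-3p, from Mir107: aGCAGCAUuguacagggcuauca

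Of such families 5 with sister genes were examined, and others in the tables were not. In each of the 5 the highest sister exceeded the summed copies, by factors that differed widely. Taking the highest sister favours this direction, and not every sister had it. Mir15b, with 7850 and 7107 counts, was below Mir16-1 alone (16864 and 18034). Mir30b had 439 and 435 counts, against 268 and 304 for Mir30c-1 and 116 and 139 for Mir30c-2. It was above their sum in replicate 1 and below it in replicate 2. Mir29c, Mir30a and Mir30d exceeded the summed copies of their families in both libraries. Mir107 had 9913 and 9194 counts, against 30 and 6 for Mir103-1 and 300 and 253 for Mir103-2. The ratio of the sister to the summed copies was 32.8 ± 3.86 there, below the 401 ± 36.0 of the Mir26 family in both libraries. Mir107 shares a stretch of at least 20 nt with another annotated microRNA transcript, while Mir26b does not. The Mir107 count may therefore leave out shared reads, and the part of this in the ratio was not tested. The highest sister of the other families was Mir30e, at 197 ± 28.5 times Mir30c-1 and Mir30c-2, Mir29a, at 57.1 ± 6.66 times Mir29b-1 and Mir29b-2, and Mir15a, at 1.36 ± 0.0309 times Mir16-1 and Mir16-2. The Mir26 ratio was above each of these in replicate 1 and in replicate 2, with no overlap. This order was not tested, since 2 libraries are too few for a permutation test to pass 0.05. Some genes with 1 shared arm had higher counts than the Mir26a genes. Mir16-1, which shares miR-16-5p with Mir16-2, stood at 4354 ± 366 CPM, and Mir128-1 and Mir128-2, which share miR-128-3p, at 746 ± 174 and 575 ± 146 CPM. Each of these genes also has an arm that is not shared, and the counts do not separate the arms. The part of either arm in these levels was therefore not tested. Mir26a-2 was closest to Mir30c-2 (31.9 ± 5.22 CPM) and Mir103-2 (68.8 ± 5.75 CPM), and with the former it overlapped.

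**Figure D4:**
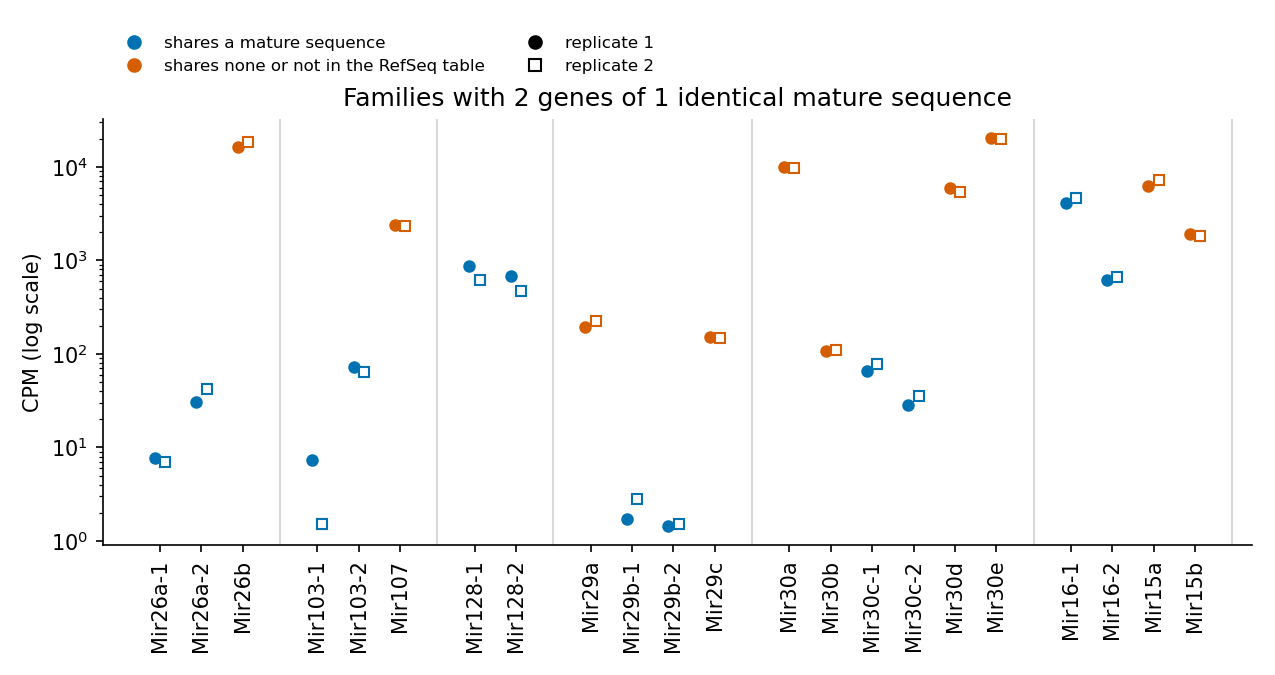
CPM on a log scale for the genes of 6 families in which 2 genes give 1 identical mature sequence (blue), with their sister genes (orange), filled circles for replicate 1 and open squares for replicate 2. The distance between the copies and the highest sister is, among the families plotted, widest for Mir26, where Mir26b exceeds the summed copies by 401-fold.

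Between the libraries, Mir26b and Mir26a-2 were higher in replicate 2, and Mir26a-1 did not pass the test. Each count of replicate 2 was set against that of replicate 1 by an exact binomial test, two-sided, with library sizes scaled by TMM. The p-values were adjusted by the Benjamini-Hochberg method over the 475 genes with at least 10 counts in both libraries together. The test compares these 2 libraries and not conditions, and it covers counting error only. As log2 of replicate 2 over replicate 1, Mir26b stood at 0.27 (95% interval 0.26 to 0.29, exact binomial adjusted p = 2.44e-271), Mir26a-2 at 0.56 (0.22 to 0.91, exact binomial adjusted p = 0.00351) and Mir26a-1 at -0.06 (-0.86 to 0.72, exact binomial adjusted p = 0.96). Thus 2 of 3 members were called higher and 0 of 3 lower. Of all genes tested 18.1% were called higher and 20.8% lower, 38.9% in all, so calls of this kind were common. With library totals in place of TMM every log2 ratio is lower by 0.11, and the calls split into 54 higher and 141 lower, against 86 and 99. Mir26b and Mir26a-2 were called higher under both, at 0.16 and 0.45 with library totals.

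The size of the ratio was ordinary for the pair of libraries in Mir26b and Mir26a-1, while that of Mir26a-2 was among the larger ones. The median absolute log2 ratio of the detected genes was 0.21, and 41.4% of them had a larger one than Mir26b, 12.2% a larger one than Mir26a-2 and 84.1% a larger one than Mir26a-1. An edgeR exact test with a biological coefficient of variation of 14.3% called 0 of the 3 members. Their unadjusted p in that edgeR exact test was 0.352 for Mir26b, 0.102 for Mir26a-2 and 1 for Mir26a-1. Its dispersion was estimated from the difference under test, between 1 library and 1 library, so few genes could be called and the lack of a call says nothing about the members. Over all 475 genes the edgeR exact test called 1, with 31 at an unadjusted p under 0.05.

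**Figure D5:**
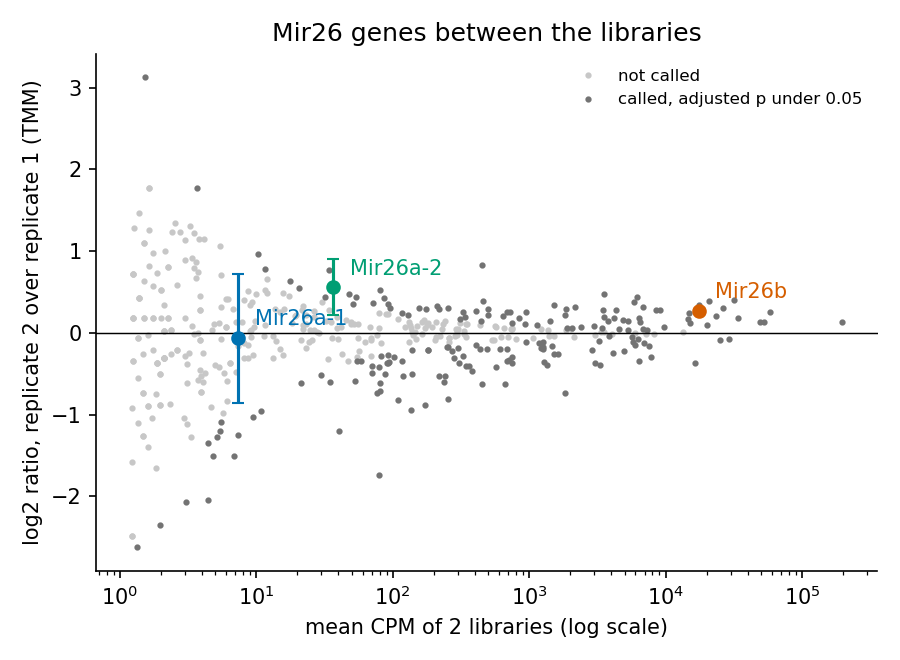
Log2 ratio of replicate 2 over replicate 1 (TMM) against mean CPM on a log scale for the 475 genes tested, with genes called by the exact binomial test in dark grey and the Mir26 genes in colour with 95% intervals. Mir26b at 0.27 and Mir26a-2 at 0.56 lie above 0, and the interval of Mir26a-1 crosses it.

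The microRNAs linked to REST stood below Mir26b in counted reads, as nearly all genes did. Of a list of 13 genes linked to REST, which covers Mir132, Mir212, Mir137, Mir153 and genes of the miR-9, miR-124 and miR-29 families, 12 were in the tables, Mir9-1 not being analysed here, and 8 were detected. All 12 had a lower mean CPM than Mir26b. Since Mir26b ranked 13 of 1973 genes by mean CPM, nearly any list of genes would lie below it. The highest were Mir137 at 7852 ± 1559 CPM, a microRNA of neural progenitors and neurons, Mir153 at 2027 ± 63.0 CPM, Mir9-3 at 738 ± 22.2 CPM, and activity-linked Mir132 at 286 ± 20.3 CPM. Of the 12 genes 7 share a stretch of at least 20 nt with another annotated microRNA transcript (the genes of miR-9 and miR-124, Mir29b-1 and Mir29b-2). As for the Mir26a genes, their counts may leave out shared reads, so the comparison with Mir26b is one of counted reads only. Between the libraries 1 of the list was called higher (Mir29a, log2 ratio 0.33) and 1 lower (Mir137, -0.30), where 18.1% of all tested genes were called higher and 20.8% lower. The median log2 ratio of its detected members was 0.05, beside 0.03 over all detected genes.

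Neural markers, which the label of the tissue calls for, were detected for 8 of 10 genes in the tables and summed to 27236 CPM in replicate 1 and 23525 CPM in replicate 2. Most of that sum came from Mir92b (13897 and 12964 CPM) and Mir137 (8954 and 6750 CPM). By mean CPM, Mir9-2 stood at 4.73, Mir124a-1 at 1.74, Mir124a-2 at 4.86 and Mir124a-3 at 0.748. Of the 10 genes 7 share a stretch of at least 20 nt with another annotated microRNA transcript, so their counts may leave out shared reads. The posterior list (Hox-embedded genes) summed to 446 and 293 CPM, liver Mir122 to 59.3 and 52.7 CPM and the striated muscle list to 48.3 and 37.1 CPM, with 3 of its 5 genes (Mir1a-1, Mir133a-1 and Mir133b) at 0 in both libraries. Each of these 3 shares a stretch of at least 20 nt with another annotated microRNA transcript, so its 0 does not show that the microRNA is absent. Epithelial markers summed to 1512 and 1420 CPM, of which Mir203 held 1409 and 1343 CPM. Mural markers summed to 3130 and 4019 CPM and blood ones to 239 and 179 CPM. Endothelial Mir126a, at 16042 and 18828 CPM, was higher in replicate 2, as Mir26b was (log2 ratio 0.34 and 0.27). Of the 3 blood genes in the tables, Mir144 (log2 ratio 0.77) and Mir223 (0.30) were called higher and Mir451a (-1.73) lower. Of the neural genes 0 were called higher and 3 lower, of the posterior genes 2 lower, and of the epithelial and muscle lists 1 lower each, while 1 of 2 mural genes was called higher. Of all tested genes 18.1% were called higher and 20.8% lower. The lists are too short to tell whether their calls follow a pattern, and this was not tested. The part of these cells in the Mir26b result was not tested, and in bulk tissue fewer cells of a type and less RNA per cell cannot be told apart.

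Matches to the miR-26 seed were looked for after the stop codon of the host messenger RNAs and of a few genes known as parts or targets of the pathway. The letters searched were TACTTGA, the reverse complement of bases 2 to 8, on the transcript strand only. Among 21660 mouse genes with a stretch after the stop codon in GENCODE M21, 8.40% hold them. The transcript of Ctdsp2 with the longest coding sequence has 1 match in 3483 nt, where 22.9% of 1618 stretches within 20% of that length hold at least 1. Ctdspl has 0 in 3349 nt and Ctdsp1 0 in 1701 nt. Rest has 1 match in 3448 nt, where 22.5% of 1638 stretches of similar length hold one, and Ezh2, which encodes a histone methyltransferase, has 1 in 402 nt, against 2.94% of 1869. The sites of a host and of the repressor are shown, with the match in capitals together with a following A where there is one.
Ctdsp2, base 1080 after the stop codon: cccaagtgttgctctTACTTGAtttg
Rest, base 349 after the stop codon: attggcttagtaaatTACTTGAAgaa
A match of letters is a description and does not show binding, and messenger RNA was not measured in these libraries.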

How the data were processed

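The authors deposited 1 table of raw read counts per library, on mm10 and GENCODE M4 per the deposited read-me texts. The roles of its 3 count columns (either strand, the strand of the gene, the opposite strand) were read from the values. For the aligner and the counting tool, no name or version is given in the sources used here. Replicates were not pooled. Replicate 1 held 4117752 gene counts of 10631040 reads and replicate 2 3908953 of 10452225, so 1 count is 0.243 and 0.256 CPM. The own-strand column was used, and library sizes leave out the summary rows. Names came from GENCODE M21 (1894 of 1973 identifiers matched), sequences from RefSeq GRCm38.p6.

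TMM (edgeR 4.0.16, R 4.3.3) scaled the ratios between libraries, with a prior count of 0.5. The exact binomial test (SciPy 1.17.1) was fitted on the whole table and tested on simulated data. Hairpins were folded with RNAfold 2.7.2. DESeq2 1.42.0 size factors, library totals, other filters, either-strand counts, an edgeR exact test and leaving out each library were alternatives. The members, lists and families were chosen with earlier results of these data known. Named genes were the members, the 2 detected genes above and below each in mean CPM, the fixed families and up to 4 leading genes of the REST list. Genes that lead a class of shared arms were named after their values were seen. The seed match search of 1 further gene is not reported here.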

Additional observations from a re-analysis of the deposited data

Results flagged for a closer look

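A large signal stands outside the measurement of single genes, in the row of reads that map to several places. It held 4315754 reads in replicate 1 and 4589546 in replicate 2, and no control samples exist. The sequence of miR-26a-5p fits Mir26a-1 and Mir26a-2 equally well, and the tables do not tell how many reads of that row carry it.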

How the results depend on the processing

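With all reads as the denominator the levels fell to 6639 CPM for Mir26b, 13.9 CPM for Mir26a-2 and 2.80 CPM for Mir26a-1, and the share of the family to 0.666%, while the order stayed the same. With the edgeR exact test the log2 ratios were 0.27 for Mir26b and 0.56 for Mir26a-2, neither of them called (adjusted p = 1 and 0.884 in the edgeR exact test), and 1 gene was called in place of 185. Among genes without a copy, meaning no exact stretch of 20 nt shared with another annotated microRNA transcript, Mir26a-1 would rank 252 and Mir26a-2 196. Leaving out either library gives the value of the other, from 376 to 427 for the ratio of Mir26b to the summed Mir26a genes and from 1.65 to 1.85% for the share of the family. With 2 libraries such values lie within 1 SD of the mean by construction. Scaling, either-strand counts and the low-count filters changed no call and no direction for a member. With at least 50 counts required in each library, Mir26a-1 was not tested. Depth limits Mir26a-1 most, whose 32 and 27 counts leave a log2 ratio between -0.86 and 0.72. Uniqueness was searched in annotated microRNA transcripts and not in the genome.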
